A study of Mus musculus with 35 samples.

Results

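The Gad1 sort and the Pdpn sort of mouse medullary thymic epithelial cells (mTECs) were compared gene by gene. For each gene the Gad1 difference (Gad1-positive minus Gad1-negative cells) was set against the Pdpn difference (Pdpn-positive minus Pdpn-negative cells), both in log2 signal, and the second was subtracted from the first. This value is called the difference of differences below. A gene entered if it had a named probe with a detection p under 0.05 on at least 2 of the 3 arrays of 1 of the 4 groups. Of the 46089 probes of the array, 35667 had a gene name and 24941 of these met that rule, which left 16650 of 21903 named genes, each read from 1 probe. The comparison uses 12 of the 35 arrays of the series, 3 for each group, described by the labels as biological replicates. The other arrays come from sorts by other antigens and entered the fit to share its estimate of the spread.

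All 4 groups are mTECs isolated by fluorescence-activated cell sorting and profiled by bead array from total RNA. Pdpn-positive and Pdpn-negative cells were separated with an antibody to the Pdpn protein, and Gad1-positive and Gad1-negative cells came from mice with a Gad1 reporter. The labels name no treatment, strain, age or number of animals, no gates, and not how the reporter was built. Each sort has its own negative fraction, so the 2 comparisons share no array. Antibody or reporter, and the mice used, cannot be told apart from the antigen when levels of one sort are set against levels of the other. For that reason the differences within each sort are what is compared. This does not remove the limit, since each sort had its own way of marking cells. The difference of differences cannot be told apart from antibody or reporter and mice either. Nothing states whether the 3 arrays of a group came from separate animals. The p-values rest on the spread between arrays within groups, pooled over all groups of the fit.

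mTECs line the inner part of the thymus and show self-antigens to developing T cells. Each mTEC makes a small and shifting share of the proteins that other tissues make, an output known as promiscuous gene expression, which the regulators Aire and Fezf2 drive in part. Immature mTECs attach to the matrix through integrins, carry basal keratins and make the chemokine Ccl21, mature ones carry Aire, Cd80 and much MHC class II, and some then take on programmes of peripheral cells such as keratinocytes, tuft cells, endocrine cells or microfold cells. Podoplanin, the product of Pdpn, is a mucin-like membrane glycoprotein known from lymphatic endothelium, fibroblastic cells and a Ccl21-making mTEC subset. Gad1 encodes the glutamate decarboxylase that makes the neurotransmitter GABA.

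Array quality was read from the probes detected and from the agreement of replicates. The share of probes detected ran from 51.5% to 59.5%, with 23729 to 24146 probes on the Gad1-negative arrays, 25729 to 26414 on the Gad1-positive, 26346 to 27421 on the Pdpn-negative and 25094 to 25813 on the Pdpn-positive arrays. Detection was thus higher in Gad1-positive than in Gad1-negative cells and lower in Pdpn-positive than in Pdpn-negative cells, without overlap. The part of this gap in the results was not tested. Weights that limma gave each array by its spread ran from 0.525 (Gad1-negative replicate 1) to 2.33 (Pdpn-negative replicate 2). Correlations between replicates were 0.980 to 0.993. Of the epithelial markers, Krt8, Krt18, Krt19, Cldn3 and Cldn7 were detected on all 12 arrays, as were Aire, Fezf2, Cd80 and H2-Aa. Epcam was not tested here. Detection does not mean that these markers were level between groups. Of 7 epithelial markers tested, 6 were higher with Gad1 at an adjusted p under 0.05 in limma (21.1% of all genes). With Pdpn 3 were higher (20.1%) and 2 lower (21.2%). When arrays were scaled to a common median, 4 were higher with Gad1.

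The genes of the antigens themselves came first. Pdpn measured 7.74, 8.20 and 8.29 on the Pdpn-negative arrays and 12.29, 12.59 and 12.57 on the Pdpn-positive arrays. In the other sort it measured 10.16, 10.05 and 9.97 on the Gad1-negative arrays and 9.91, 9.58 and 9.44 on the Gad1-positive arrays. Its Pdpn difference was 4.41 (SE 0.21, limma, adjusted p = 3.2e-17), whereas its Gad1 difference of -0.42 (SE 0.21, limma, adjusted p = 0.11) did not pass the threshold. Gad1 measured 7.81, 7.48 and 7.23 on the Gad1-negative arrays and 8.14, 7.88 and 8.49 on the Gad1-positive arrays, where the lowest positive array lay just above the highest negative one. In the Pdpn sort it measured 8.54, 8.22 and 8.43 on the Pdpn-negative arrays and 7.09, 6.74 and 6.50 on the Pdpn-positive arrays, with the groups well apart and the positive cells low. The Gad1 difference of this gene was 0.66 (SE 0.21, limma, adjusted p = 0.012) and the Pdpn difference -1.62 (SE 0.21, limma, adjusted p = 1.6e-07). Without Gad1-negative replicate 3 the first was 0.53 (adjusted p = 0.081), and without Gad1-positive replicate 3 it was 0.50 (adjusted p = 0.093), both from limma. Ins2, the insulin gene whose reporter marks another sort of the series, moved as Gad1 did and further, measuring 6.17, 6.29 and 6.15 on the Gad1-negative arrays and 9.10, 9.17 and 8.96 on the Gad1-positive arrays, and 8.39, 8.54 and 8.36 on the Pdpn-negative arrays and 6.86, 6.48 and 6.74 on the Pdpn-positive arrays. It differed by 2.87 with Gad1 and -1.73 with Pdpn. The antigen genes of the remaining sorts were higher with Gad1 and did not follow this pattern with Pdpn. Gp2, a receptor of microfold cells, rose in both (Gad1 difference 2.46, Pdpn difference 0.64). Ceacam1, a cell adhesion molecule, and Tspan8, a tetraspanin, rose with Gad1 by 2.23 and 2.18, with Pdpn differences of -0.19 (limma, adjusted p = 0.58) and 0.47 (adjusted p = 0.077). Whether sorted fractions differ through the share of a cell type or through RNA per cell cannot be told apart in bulk samples such as these, here and in all that follows.

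Genes that changed in both sorts more often went opposite ways. With Gad1, 3514 genes were higher (21.1%) and 3530 lower (21.2%) at a Benjamini-Hochberg adjusted p under 0.05 in limma. With Pdpn, 3339 were higher (20.1%) and 3526 lower (21.2%). Of the 3788 genes called in both, 2839 (74.9%) moved in opposite directions and 949 (25.1%) moved alike. The opposite genes fell into 1688 that rose with Gad1 and fell with Pdpn (10.1% of all tested) and 1151 that fell with Gad1 and rose with Pdpn (6.91%). The alike genes were 497 higher in both sorts (2.98%) and 452 lower in both (2.71%). Genes that rose with Gad1 and fell with Pdpn were 48% of all that rose with Gad1 and 47.9% of all that fell with Pdpn, whereas the reverse class was 32.6% of those that fell with Gad1 and 34.5% of those that rose with Pdpn. Across the 16650 genes the 2 differences correlated at -0.34 (Pearson and Spearman), as a description over genes of the same arrays. The plot of the Gad1 difference against the Pdpn difference shows the 4 classes.

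**Figure D1:**
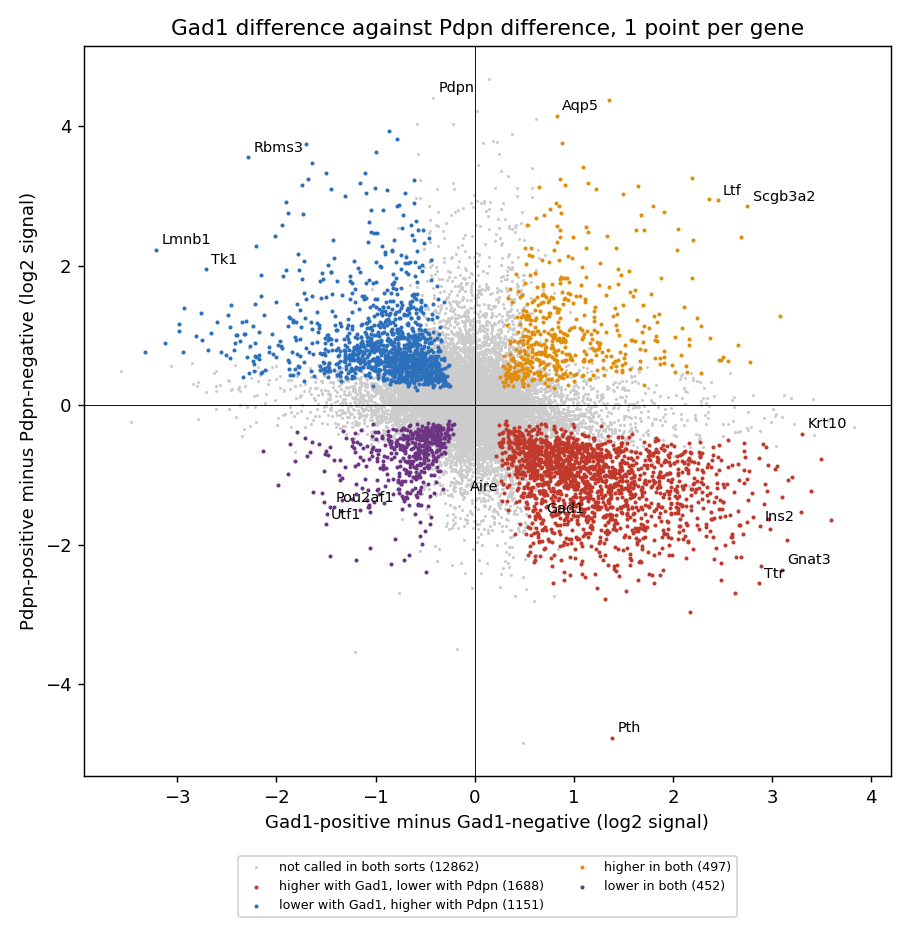
Gad1 difference (x, log2 signal) against Pdpn difference (y, log2 signal), 1 point for each of 16650 genes, with genes called in both sorts coloured by direction and the others in grey. The 1688 points at the lower right and 1151 at the upper left moved in opposite directions, the 497 at the upper right and 452 at the lower left moved alike.

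The difference of differences was tested in its own right. It was above 0 in 3991 genes (24%) and below 0 in 4182 (25.1%) at an adjusted p under 0.05. All 2839 opposite genes passed it by construction of the class. Among the alike genes, 315 of the 497 that rose and 371 of the 452 that fell did not pass it. Its median 95% interval, not adjusted for the number of genes, reached 0.56 to either side. Differences between the sorts of this size or smaller could thus go uncalled in a typical gene. The choice of scaling bears on the balance of the classes: when arrays were scaled to a common median and not quantile-normalized, genes that rose with Gad1 made up 70.7% of the opposite class and not 59.5%, and genes that rose made up 64.4% of the alike class and not 52.4%.

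The genes that rose with Gad1 and fell with Pdpn had median changes of 1.08 in the first sort and 1.00 in the second, as absolute log2 differences. In 1584 of the 1688, positive and negative arrays did not overlap in either sort. Genes called in both sorts are apt to lack overlap, so this count and those of the other classes are no separate support. Among genes called with Gad1 alone it was 919 of 3256, with Pdpn alone 543 of 3077 and in neither sort 236 of 6529. Ttr, the thyroid hormone carrier made by liver and choroid plexus, had the largest change common to both sorts among named genes detected in all 4 groups, ranked by the smaller of the absolute differences. It measured 7.69, 7.15 and 7.01 on the Gad1-negative arrays and 9.87, 10.39 and 10.20 on the Gad1-positive arrays. With Pdpn the values were 10.47, 10.48 and 10.54 on the Pdpn-negative arrays and 7.95, 7.78 and 8.09 on the Pdpn-positive arrays. The groups did not overlap in either sort, and Gad1-positive and Pdpn-negative arrays were the high ones. The Gad1 difference was 2.87 (SE 0.19, limma, adjusted p = 5.1e-14), the Pdpn difference -2.56 (SE 0.19, limma, adjusted p = 1e-12) and the difference of differences 5.42 (SE 0.27, limma, adjusted p = 4.8e-17). Gnat3, the taste G protein of tuft and taste cells, measured 5.94, 6.77 and 7.06 on the Gad1-negative arrays and 9.74, 9.36 and 9.96 on the Gad1-positive arrays, and 10.46, 9.91 and 9.95 on the Pdpn-negative arrays and 7.88, 7.63 and 7.73 on the Pdpn-positive arrays. It differed by 3.10 and -2.36. Here and below, a pair of values gives the Gad1 difference first and the Pdpn difference second, in log2. Each passed the threshold unless a p is given, and the SEs of the named genes ran from 0.10 to 0.57. The next genes by this ranking came from many tissues: Akr1c12, an aldo-keto reductase (2.49 and -2.51), Prl2c3, a placental proliferin (2.89 and -2.30), Dppa3, a germ cell factor (2.41 and -2.20), Spink4, a goblet cell protein (2.69 and -2.18), Fabp9, a testis fatty acid binding protein (2.64 and -2.18), and Saa3, an acute phase protein (2.53 and -2.01). Klk1b27, a kallikrein protease, rose by 2.17 and fell by 2.96.

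**Figure D2:**
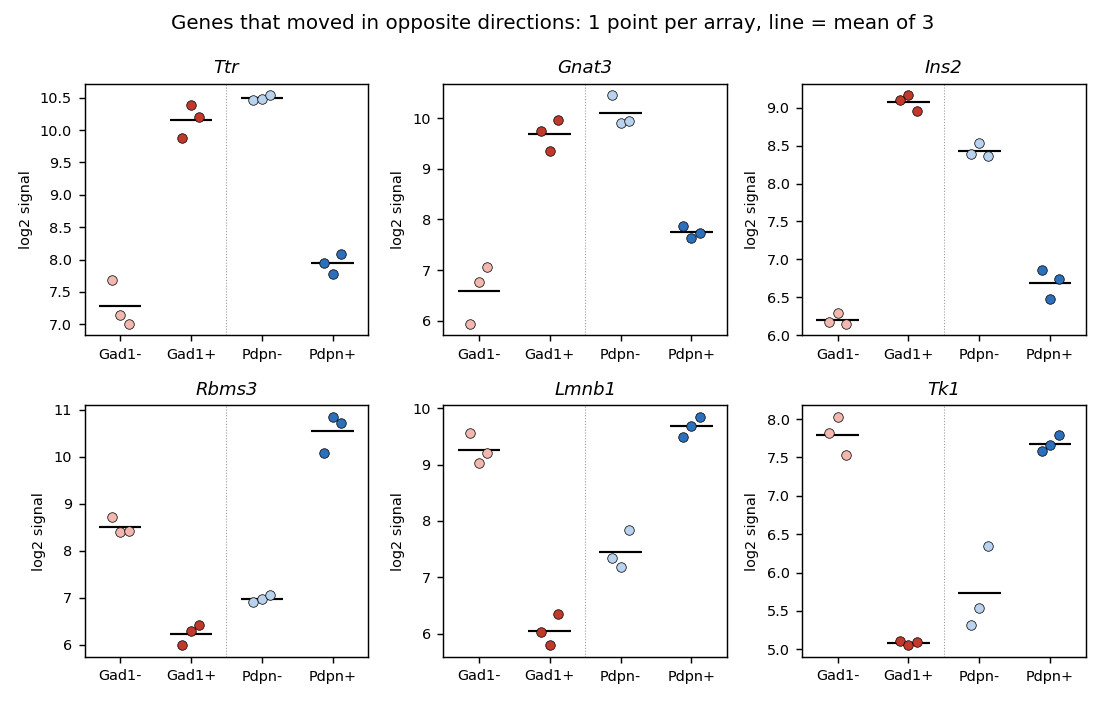
Log2 signal of 6 genes that moved in opposite directions, 1 point per array and a line at the mean of 3, with negative and positive cells of the Gad1 sort at the left and of the Pdpn sort at the right of each panel. Ttr, Gnat3 and Ins2 were high in Gad1-positive and Pdpn-negative cells, and Rbms3, Lmnb1 and Tk1 in Gad1-negative and Pdpn-positive cells.

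For some genes 1 group lay below background on every array, and the size is then a bound against the lowest signal that was detected. Anxa10, a stomach annexin, was not well above background in Gad1-negative cells and was at least 5.62-fold higher in Gad1-positive cells (adjusted p = 6.3e-12), with a Pdpn difference of -1.72. Sval2, a seminal vesicle antigen-like gene, was at least 4.49-fold higher with Gad1 (adjusted p = 5.6e-10). Ms4a3, a myeloid membrane protein, was below background in Pdpn-positive cells and at least 2.60-fold lower there (adjusted p = 8.8e-06).

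Among the called, named genes detected in all 4 groups, the highest difference of differences belonged to Pth, the parathyroid hormone gene, at 6.16 (SE 0.81, limma, adjusted p = 8.7e-08). Pth measured 11.21, 10.33 and 11.25 on the Pdpn-negative arrays and 5.46, 6.18 and 6.84 on the Pdpn-positive arrays. In the Gad1 sort the values were 5.34, 5.62 and 5.71 on the Gad1-negative arrays and 6.94, 6.67 and 7.24 on the Gad1-positive arrays. The groups did not overlap in either sort. It fell by 4.77 with Pdpn. Its Gad1 difference was 1.39 (SE 0.57, limma, adjusted p = 0.049), where the SE pools the spread over all groups of the fit and is the widest among the genes named here. The call sat at the threshold, and leaving out any 1 Gad1 array moved that adjusted p to between 0.062 and 0.13, while the difference of differences kept its call. Without background correction the Gad1 difference of Pth was 0.61 (adjusted p = 0.17), and in the authors' normalized values 0.66 (adjusted p = 0.15). Sh2d6, an adaptor protein of tuft cells, was also among the 5 highest, with 3.60 and -1.65.

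Several gene lists for peripheral tissues had most of their tested members in this class, which holds 10.1% of all tested genes. Tuft cell genes, which serve taste transduction and eicosanoid and interleukin output, had 14 of 18 members in the class, 2 more that changed with Gad1 alone (19.6% of all genes) and none that rose with Pdpn. Their median differences were 1.81 and -1.19, against -0.01 in each sort over all genes. Many list medians were smaller without background correction, here 1.16 and -0.77. Where the medians of a list are given below, uncorrected medians follow if 1 of them moved by over 1.5 times. Avil, an actin-bundling protein, gave 2.80 and -1.26, and Gng13, the partner of gustducin, gave 1.98 and -1.40. Among endocrine genes it was 15 of 18 (medians 1.28 and -1.46, uncorrected 0.77 and -0.95), with the hormones Pyy (1.90 and -1.03) and Ppy (1.83 and -1.49) and the granule protein Resp18 (1.53 and -2.66) among them. Kallikreins, serine proteases encoded side by side in the genome, had 17 of 22 members in the class (medians 1.69 and -2.05, uncorrected 1.40 and -1.35). Klk1b8 differed by 1.79 and -2.43 and Klk5, a protease of skin shedding, by 1.99 and -2.15. Signals of such near-identical family members may share transcripts through cross-hybridization, so the members are not independent.

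Digestive and liver genes followed the same course. In the exocrine pancreas list 11 of 16 were in the class (medians 1.54 and -1.12, uncorrected 0.63 and -0.46, and 0.66 and -0.54 in the authors' normalized values), among them Ctrb1, a chymotrypsinogen (2.09 and -1.45), and Clps, the colipase (1.46 and -2.45). In the intestine list it was 11 of 17 (1.74 and -0.86), where Vil1, the villin of the brush border, gave 2.48 and -1.60 and Sis, the sucrase-isomaltase, 3.03 and -0.91. The liver list had 11 of 17 (1.35 and -0.86, uncorrected 0.98 and -0.32), with Apoc3, an apolipoprotein, at 2.98 and -1.77 and Ambp, the bikunin precursor, at 1.95 and -1.90. Milk protein genes had 5 of 7 (1.32 and -1.80, uncorrected 0.74 and -0.91), among them the casein Csn2 at 1.33 and -1.91. Skeletal muscle had 6 of 16 (0.42 and -0.51, uncorrected 0.11 and -0.17). There Myh8, the perinatal myosin heavy chain, gave 1.61 and -1.55, and Chrna1, the acetylcholine receptor subunit, 0.56 and -2.02. The Gad1 call of Chrna1 was lost without Gad1-negative replicate 3 (0.51, adjusted p = 0.053 in limma) and without Gad1-positive replicate 3 (0.50, adjusted p = 0.058).

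Neuron and GABA genes were a mixed list, with 4 of 10 in the class (medians 0.54 and -0.63, uncorrected 0.22 and -0.19). Besides Gad1 these included Sncg, a synuclein (2.15 and -1.96), and Syp, the synaptic vesicle protein synaptophysin (0.68 and -1.34). Stmn2, a neuronal tubulin regulator, fell with Gad1 (-1.16) and had a Pdpn difference of 0.35 (adjusted p = 0.14). Abat, the enzyme that breaks GABA down, rose in both sorts (1.22 and 1.40), so the enzymes that make and degrade GABA did not move together on the Pdpn side. On the mean of all its probes the Gad1 difference of Abat was 0.35 (adjusted p = 0.059).

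Markers of other cells were read beside this class. Of 13 tested marker genes of dendritic cells and macrophages, 6 were higher with Gad1 (against 21.1% of all genes), while with Pdpn 3 were lower (21.2%) and 2 higher (20.1%), and 2 lay in the class (10.1%). The 2 higher with Pdpn were Csf1r, the receptor of macrophage growth factor (0.78), and Siglech, a lectin of plasmacytoid dendritic cells (1.02), and on the mean of their probes neither passed (0.29 and 0.42, adjusted p = 0.32 and 0.26). The call of Csf1r was also lost without 3 of the 6 Pdpn arrays in turn (0.56 to 0.72, adjusted p = 0.055 to 0.13). Their summed linear signal was 1889 to 2715 on the Gad1-negative arrays, 4906 to 6763 on the Gad1-positive, 3711 to 4321 on the Pdpn-negative and 1451 to 2981 on the Pdpn-positive arrays. All 4 tested red blood cell markers fell with Pdpn and 3 rose with Gad1, with summed signals of 1184 to 1990 and 2472 to 5047 in the Gad1 sort and 1829 to 3253 and 562 to 749 in the Pdpn sort (negative, then positive). For B cells 2 of 4 did the same (414 to 466 and 618 to 682, 574 to 681 and 204 to 293). Ptprc, Cd79a and Pax5 were not tested here, and Ms4a1, a defining B cell marker, was below background on all Pdpn-positive arrays. The part of these cells in the results above was not tested.

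The genes that fell with Gad1 and rose with Pdpn had median changes of 0.81 and 0.73. In 1068 of the 1151 the arrays did not overlap in either sort. Rbms3, an RNA-binding protein, had the lowest difference of differences among the same genes, at -5.84 (SE 0.25, limma, adjusted p = 2.8e-18). It measured 8.71, 8.41 and 8.43 on the Gad1-negative arrays and 5.99, 6.29 and 6.42 on the Gad1-positive arrays. On the Pdpn side it measured 6.91, 6.98 and 7.07 on the Pdpn-negative arrays and 10.08, 10.85 and 10.71 on the Pdpn-positive arrays. Gad1-negative and Pdpn-positive arrays were the high ones, and no arrays overlapped within a sort. Lmnb1, the nuclear lamin B1, measured 9.56, 9.03 and 9.20 on the Gad1-negative arrays and 6.02, 5.79 and 6.34 on the Gad1-positive arrays, and 7.34, 7.18 and 7.84 on the Pdpn-negative arrays and 9.50, 9.69 and 9.85 on the Pdpn-positive arrays. It fell by 3.21 with Gad1 and rose by 2.23 with Pdpn. Matrix, adhesion and signalling genes were among the other top-ranked names. Fstl1, a secreted glycoprotein, gave -2.21 and 2.28, Flna, the actin crosslinker filamin A, -1.90 and 2.92, and Snai2, a transcription factor of epithelial-mesenchymal change, -1.88 and 2.76. Both Smo, which transduces hedgehog signals, and Gli3, a transcription factor of that pathway, were among them (-1.90 and 1.94, -2.02 and 2.43). Ltbp4, a matrix protein that binds latent TGF-beta, differed by -1.70 and 3.75, and Nfib, a nuclear factor I protein, by -1.65 and 3.47. Erf, a transcriptional repressor, was not well above background in Gad1-positive cells, where it was at least 2.11-fold lower (adjusted p = 3.8e-05), and it rose with Pdpn by 0.87.

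Proliferation genes, which copy DNA or drive mitosis, fell with Gad1 almost without exception. Of 29 tested, 28 were lower with Gad1 and 27 had a difference of differences below 0. Of these, 9 also rose with Pdpn and so were opposite, against a background of 6.91%, and 18 changed with Gad1 alone. The list medians were -2.41 with Gad1 and 0.49 with Pdpn, and without background correction -1.32 and 0.21. Mki67, the Ki-67 antigen of cycling cells, measured 9.64, 9.87 and 9.86 on the Gad1-negative arrays and 6.76, 6.98 and 6.68 on the Gad1-positive arrays. The Pdpn sort gave 7.80, 8.04 and 8.10 on the Pdpn-negative arrays and 8.99, 9.12 and 9.34 on the Pdpn-positive arrays. The Gad1-negative and the Pdpn-positive arrays were the high ones of each sort. Tk1, the thymidine kinase of S phase, measured 7.82, 8.03 and 7.53 on the Gad1-negative arrays and 5.11, 5.05 and 5.09 on the Gad1-positive arrays, and 5.31, 5.54 and 6.35 on the Pdpn-negative arrays and 7.59, 7.66 and 7.79 on the Pdpn-positive arrays. Among the mitotic genes, Plk1, a kinase, gave -2.99 and 1.07 and Cdc20, an activator of the anaphase-promoting complex, -2.41 and 1.00. Mcm5, a helicase subunit of DNA replication, gave -2.75 and 0.93. The number that rose with Pdpn depended on the processing: the opposite class held 12 of these genes without background correction, 13 in the authors' normalized values, 10 with median scaling and 14 with the 12 arrays fitted alone. Ccne2, a cyclin of S phase entry, was the exception that fell with Pdpn as well, at least 1.57-fold (adjusted p = 0.044), being below background on all Pdpn-positive arrays. That call was lost when any 1 Pdpn array other than Pdpn-negative replicate 1 was left out (differences of -0.73 to -0.61, adjusted p = 0.068 to 0.14).

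Promoter sequences are given for 2 genes of this class because promoters of mitotic genes are known for CCAAT boxes, bound by the factor NF-Y. The windows run from 250 bases before to 50 after the start in RefSeq (GRCm38.p6), 5′ to 3′ on the gene's strand, and capitals mark CCAAT on either strand (ATTGG where it lies on the other).
Cdc20: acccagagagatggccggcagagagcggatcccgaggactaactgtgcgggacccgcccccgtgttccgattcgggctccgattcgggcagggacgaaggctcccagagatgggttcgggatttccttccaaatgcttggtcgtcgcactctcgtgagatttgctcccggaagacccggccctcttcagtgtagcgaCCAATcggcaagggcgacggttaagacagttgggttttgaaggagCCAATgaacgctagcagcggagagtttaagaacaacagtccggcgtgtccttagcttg
Mki67: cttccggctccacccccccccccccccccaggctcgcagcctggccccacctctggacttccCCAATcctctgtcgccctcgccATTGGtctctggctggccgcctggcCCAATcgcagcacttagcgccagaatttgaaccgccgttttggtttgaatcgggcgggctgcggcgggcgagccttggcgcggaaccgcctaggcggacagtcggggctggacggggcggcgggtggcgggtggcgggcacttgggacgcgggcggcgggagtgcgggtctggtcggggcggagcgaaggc
Cdc20 lies at chr4:118437294-118437593 (minus strand) and Mki67 at chr7:135716330-135716629 (minus strand). Both windows were picked after the matches were seen, as ones that hold the motif, and the window of Tk1 held none. CCAAT was present on 1 or both strands in 15 of 23 proliferation promoters in the table (65.2%), against 37.9% of all 27025 promoters, and in 6 of the 9 genes of the opposite class. TTTGAA, the core of the cell cycle homology region, was in 8 of 23 (34.8%) against 18.1% of all. CCAAT and TTTGAA, on either strand, can share at most 1 end letter and were counted separately. A match describes letters in a window and says nothing of binding.

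Fibroblast and pericyte markers moved with the Pdpn sort beside this class. Of 15 tested, 10 were higher with Pdpn (20.1% of all genes) and none lower (21.2%). With Gad1 3 were higher and 3 lower, near the shares over all genes (21.1% and 21.2%). The medians were 0.05 with Gad1 and 2.57 with Pdpn. Without background correction the Pdpn median was 0.92. Their summed signal was 3302 to 4053 on the Pdpn-negative and 16158 to 24195 on the Pdpn-positive arrays, but 4139 to 4683 on the Gad1-negative and 3801 to 4792 on the Gad1-positive arrays, where the ranges overlap. The collagens Col6a1 (-1.10 and 3.32) and Col6a2 (-0.86 and 3.92) and the matrix protein Fbln1 (-0.71 and 3.04) were opposite. The Gad1 call of Col6a2 was lost without Gad1-negative replicate 1 (-0.85, adjusted p = 0.067), Gad1-negative replicate 3 (-0.84, adjusted p = 0.072) or Gad1-positive replicate 3 (-0.58, adjusted p = 0.20). The Gad1 difference of Fbln1 was -0.63 with median scaling (adjusted p = 0.052) and -0.30 on the mean of its probes (adjusted p = 0.058). Col3a1, a fibrillar collagen, was below background in Pdpn-negative and Gad1-negative cells and at least 5.62-fold higher in Pdpn-positive ones (adjusted p = 1.3e-13). The part of these cells in the genes that rose with Pdpn was not tested.

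Among the genes that moved alike, those higher in both sorts changed by medians of 0.82 with Gad1 and 0.89 with Pdpn. In 441 of the 497 the arrays did not overlap in either sort. Scgb3a2, a secretoglobin of airway club cells, led them. It measured 4.52, 4.68 and 5.04 on the Gad1-negative arrays and 7.37, 7.37 and 7.74 on the Gad1-positive arrays. In the Pdpn sort it measured 6.10, 6.27 and 6.41 on the Pdpn-negative arrays and 8.99, 9.02 and 9.32 on the Pdpn-positive arrays. Both positive groups lay above their negative groups by nearly the same amount, 2.75 and 2.85, and the difference of differences was -0.10 with a 95% interval of -0.85 to 0.64. This near-equality depends on the background correction: without it the difference of differences was -0.73 (limma, adjusted p = 0.0048), and in the authors' normalized values -0.78 (adjusted p = 0.0026), with both differences still above 0. Ltf, the iron-binding lactoferrin of secretions, measured 8.49, 8.49 and 8.46 on the Gad1-negative arrays and 10.98, 10.85 and 10.97 on the Gad1-positive arrays, and 11.08, 10.23 and 10.50 on the Pdpn-negative arrays and 13.75, 13.36 and 13.51 on the Pdpn-positive arrays. It rose by 2.45 and 2.94. Prss27, a membrane serine protease (2.69 and 2.41), Krt6b, a keratin of activated epithelium (2.36 and 2.96), Cxcl17, a mucosal chemokine (2.20 and 2.36), Bpifa1, an antimicrobial protein of the upper airway (2.05 and 2.53), and Serpinb11, an intracellular serpin (2.04 and 2.22), followed. Gsto1, a glutathione transferase, rose by 2.19 and by more with Pdpn, 3.26, which left a difference of differences of -1.07 (SE 0.27, limma, adjusted p = 0.0012). Pcolce, an enhancer of procollagen processing, was below background in Gad1-negative cells and at least 2.06-fold higher with Gad1 (adjusted p = 0.00016), with a Pdpn difference of 2.55.

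Lung and airway genes were the tissue list with the most members that rose in both, 5 of 12 against 2.98% of all genes. Besides Scgb3a2 and Ltf these were Cyp2f2, a club cell cytochrome (1.80 and 2.86), Sftpd, a surfactant collectin (2.28 and 1.14), and Bpifb1, a secreted protein of airway mucosa (1.87 and 0.60). The Pdpn call of Bpifb1 was lost without Pdpn-positive replicate 1 (0.49, adjusted p = 0.061) or replicate 3 (0.45, adjusted p = 0.087). Scgb1a1, the club cell secretoglobin of the same family as Scgb3a2, did not do this. It measured 8.57, 8.77 and 8.68 on the Gad1-negative arrays and 11.26, 11.56 and 11.34 on the Gad1-positive arrays. With Pdpn the values were 10.54, 10.61 and 10.65 on the Pdpn-negative arrays and 10.49, 9.87 and 9.80 on the Pdpn-positive arrays. It rose with Gad1 by 2.71 and fell by 0.55 with Pdpn, and with median scaling the Pdpn difference was -0.52 (adjusted p = 0.051). Sftpb, another surfactant protein, was opposite too, and below background in Pdpn-positive cells, at least 1.58-fold lower (adjusted p = 0.00034).

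**Figure D3:**
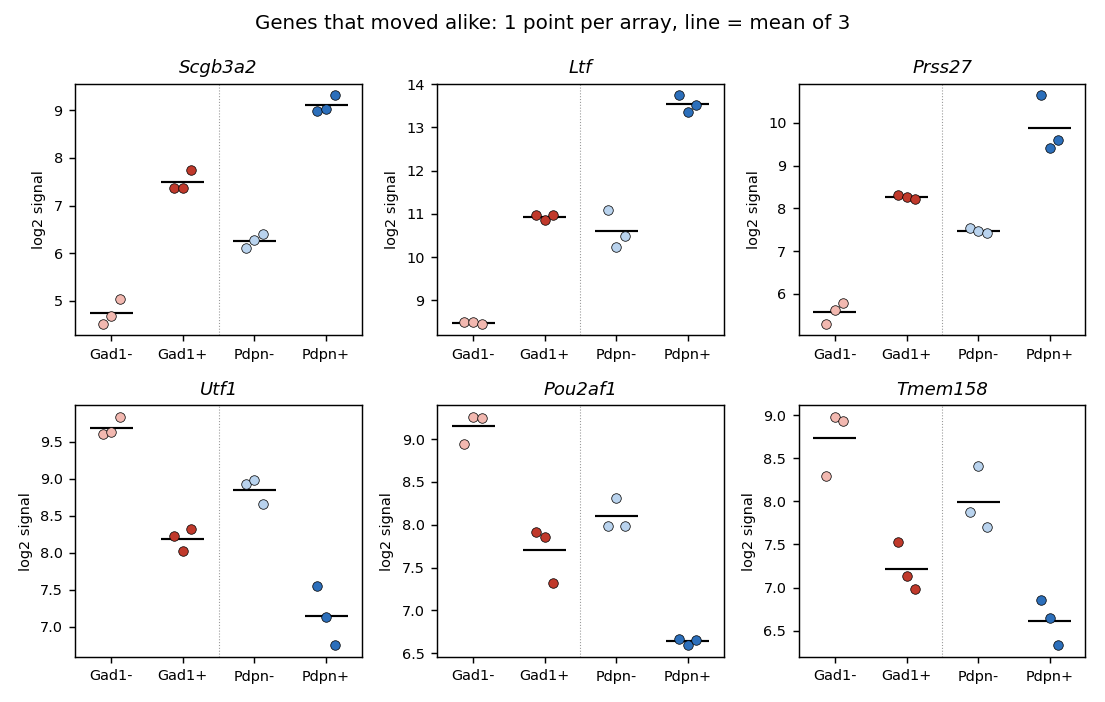
Log2 signal of 6 genes that moved alike, drawn as 1 point per array with a line at the mean of 3 for Gad1-negative, Gad1-positive, Pdpn-negative and Pdpn-positive cells. Scgb3a2, Ltf and Prss27 were higher in both positive groups, and Utf1, Pou2af1 and Tmem158 were lower in both.

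The salivary list (medians 1.49 and -0.80, uncorrected 0.45 and -0.22) held an exception of its own. Of 13 members 5 rose with Gad1 and fell with Pdpn (10.1% of all genes), such as the secreted proteins Dcpp1 (2.05 and -1.93) and Bpifa2 (1.90 and -1.79). Aqp5, the water channel of secretory glands and alveoli, was not. It measured 5.63, 5.66 and 5.67 on the Gad1-negative arrays and 6.27, 6.77 and 6.41 on the Gad1-positive arrays, and 6.06, 5.75 and 5.67 on the Pdpn-negative arrays and 10.19, 9.56 and 10.17 on the Pdpn-positive arrays. The groups did not overlap in either sort. The rise was 0.83 with Gad1 and 4.15 with Pdpn, a difference of differences of -3.32 (SE 0.34, limma, adjusted p = 3.9e-10). Without background correction the Gad1 difference was 0.34 (adjusted p = 0.084). Lpo, a lactoperoxidase of saliva and milk, fell in both (-0.93 and -0.80).

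Interferon response genes, antiviral effectors and sensors, were the state list with the most members that rose in both, 8 of 18 against 2.98% of all genes. With Pdpn 16 were higher (20.1% of all genes) and with Gad1 9 (21.1%), and the medians were 0.54 with Gad1 and 1.38 with Pdpn, and without background correction 0.32 and 0.83. Isg15, a ubiquitin-like modifier, measured 8.08, 8.42 and 7.78 on the Gad1-negative arrays and 10.55, 10.32 and 10.16 on the Gad1-positive arrays. On the Pdpn side it measured 9.68, 9.81 and 9.70 on the Pdpn-negative arrays and 10.90, 11.15 and 10.87 on the Pdpn-positive arrays. Ifit3, an RNA-binding antiviral protein, measured 8.05, 8.52 and 7.81 on the Gad1-negative arrays and 9.68, 9.57 and 9.62 on the Gad1-positive arrays, and 8.96, 9.31 and 9.07 on the Pdpn-negative arrays and 12.10, 12.39 and 11.90 on the Pdpn-positive arrays. Positive arrays were above negative ones in each sort for both genes. Isg15 rose more with Gad1 (2.25 against 1.24), with a difference of differences of 1.00 (SE 0.24, limma, adjusted p = 0.00077). Ifit3 rose more with Pdpn (1.50 against 3.02), with one of -1.52 (SE 0.24, limma, adjusted p = 2.3e-06). Irf7, the transcription factor that amplifies interferon output, gave 1.11 and 1.53, and Igtp, a guanosine triphosphatase induced by interferon gamma, 0.95 and 0.73. Rsad2, the antiviral enzyme viperin, gave 1.91 and 0.69, and its Pdpn call was lost without Pdpn-negative replicates 2 or 3 or Pdpn-positive replicates 1 or 2 (differences of 0.53 to 0.63, adjusted p = 0.055 to 0.098). The other 2 called in both went opposite ways. Gbp3, a guanylate-binding protein, measured 8.95, 9.14 and 9.13 on the Gad1-negative arrays and 8.65, 8.36 and 8.10 on the Gad1-positive arrays, and 8.40, 8.31 and 8.23 on the Pdpn-negative arrays and 10.37, 10.61 and 10.07 on the Pdpn-positive arrays. It fell by 0.70 with Gad1 and rose by 2.04 with Pdpn. Oasl1, an oligoadenylate synthetase-like protein, did the reverse (1.55 and -0.76). Mx2, a dynamin-like antiviral protein, rose with Pdpn (2.77) and had a Gad1 difference of 0.47 (adjusted p = 0.077).

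Promoters of Ifit3 and Isg15, which rose in both sorts, and of Gbp3, which moved in opposite directions, are shown because this list is known for the interferon-stimulated response element. Capitals mark GAAA, any 2 bases and again GAAA on either strand (TTTC at both ends where it lies on the other), in the same RefSeq windows.
Ifit3: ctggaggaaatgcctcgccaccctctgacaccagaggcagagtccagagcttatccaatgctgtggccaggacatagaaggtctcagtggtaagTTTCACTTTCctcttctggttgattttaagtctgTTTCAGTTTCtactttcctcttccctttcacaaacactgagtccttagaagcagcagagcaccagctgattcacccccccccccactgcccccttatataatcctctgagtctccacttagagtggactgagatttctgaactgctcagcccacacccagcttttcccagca
Isg15: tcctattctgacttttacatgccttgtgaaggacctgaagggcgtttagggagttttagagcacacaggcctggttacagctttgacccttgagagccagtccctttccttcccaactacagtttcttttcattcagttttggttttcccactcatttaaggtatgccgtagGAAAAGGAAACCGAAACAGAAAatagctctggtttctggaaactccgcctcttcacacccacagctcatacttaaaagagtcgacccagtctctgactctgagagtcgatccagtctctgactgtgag
Gbp3: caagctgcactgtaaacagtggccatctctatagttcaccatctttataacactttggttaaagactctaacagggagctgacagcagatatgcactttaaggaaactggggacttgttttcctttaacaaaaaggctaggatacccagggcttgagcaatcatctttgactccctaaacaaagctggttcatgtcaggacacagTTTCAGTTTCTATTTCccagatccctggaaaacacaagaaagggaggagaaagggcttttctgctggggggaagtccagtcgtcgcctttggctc
They lie at chr19:34583279-34583578 (plus strand), chr4:156200769-156201068 (minus strand) and chr3:142559794-142560093 (plus strand). As above, the windows were picked after the matches were seen. The motif was in 9 of 13 promoters of the list (69.2%), against 943 of all 27025 (3.49%) and none of 23 proliferation promoters. It was in 4 of the 7 promoters of genes higher in both sorts, and the windows of Oasl1, Oasl2, Ifit2 and Irf7 held no match. So genes with the same motif were found in the alike class and in the opposite class. It can overlap TTTGAA by shared letters (GAA or TTC) and was counted separately, and CCAAT was in 5 of the 13 (38.5%).

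The genes lower in both sorts had median changes of 0.60 and 0.63. In 416 of the 452 the arrays did not overlap in either sort. Utf1, a chromatin-bound transcription factor of pluripotent cells, measured 9.61, 9.63 and 9.84 on the Gad1-negative arrays and 8.23, 8.02 and 8.33 on the Gad1-positive arrays. The Pdpn sort gave 8.93, 8.98 and 8.66 on the Pdpn-negative arrays and 7.55, 7.14 and 6.75 on the Pdpn-positive arrays. Both positive groups were low, by 1.50 and 1.71. Pou2af1, a transcriptional coactivator known from B cells, measured 8.94, 9.26 and 9.25 on the Gad1-negative arrays and 7.92, 7.86 and 7.32 on the Gad1-positive arrays, and 7.99, 8.31 and 7.99 on the Pdpn-negative arrays and 6.67, 6.59 and 6.65 on the Pdpn-positive arrays. It fell by 1.46 and 1.46, and the difference of differences of 0.01 had a 95% interval of -0.54 to 0.55. Others were Igl-5, an immunoglobulin light chain-related gene (-1.49 and -1.55), Acacb, an acetyl-CoA carboxylase (-1.42 and -1.46), Tmem158, a membrane protein (-1.52 and -1.38), Nsg2, a neuronal vesicle protein (-1.34 and -1.52), Pitpnc1, a phosphatidylinositol transfer protein (-1.46 and -2.16), and Rnf32, a ring finger protein (-1.34 and -1.35). Lmo3, a LIM-only transcription cofactor, was below background in Gad1-positive cells and at least 3.51-fold lower there (adjusted p = 6.6e-09). Its Pdpn difference of -0.55 lost its call without 4 of the 6 Pdpn arrays in turn (-0.58 to -0.47, adjusted p = 0.060 to 0.13).

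Of the transcription factors on the lists, 4 that fell in both sorts are given here, singled out after their values were seen. Insm1, which drives endocrine differentiation, measured 11.40, 11.78 and 11.56 on the Gad1-negative arrays and 10.88, 10.95 and 11.17 on the Gad1-positive arrays, and 11.15, 11.27 and 11.07 on the Pdpn-negative arrays and 10.05, 9.77 and 9.36 on the Pdpn-positive arrays. Its differences were -0.58 and -1.43, against 15 endocrine genes that rose with Gad1. Cdx1, an intestinal homeobox factor, gave -0.50 and -1.80, against 14 of 17 intestine genes that rose. Myog, the muscle factor myogenin, gave -0.49 and -0.69. The Gad1 call was lost without Gad1-negative replicate 2 for Insm1 (-0.48, adjusted p = 0.059), without Gad1-negative replicate 3 (-0.39, adjusted p = 0.12) or Gad1-positive replicate 3 (-0.43, adjusted p = 0.098) for Cdx1, and for Myog without 8 arrays in turn (-0.49 to -0.33, adjusted p = 0.051 to 0.25). Spib, an Ets factor of microfold cells and mature mTECs, fell in both as well (-0.50 and -0.54), a Pdpn call lost with median scaling (-0.46, adjusted p = 0.082) and a Gad1 call lost on the mean of its probes (-0.41, adjusted p = 0.084). On the mean of its probes the Pdpn difference of Myog was -0.21 (adjusted p = 0.45), and without background correction its Gad1 difference was -0.14 (adjusted p = 0.060). Other factors of these tissue lists did not fall in both, and are named to set beside them. Cdx2, a second intestinal homeobox factor, was opposite (0.91 and -0.80), as was Gfi1b, a repressor found in tuft cells, with a difference of differences of 2.18. Pou2f3, the master regulator of tuft cells, rose with Gad1 (0.69) with a Pdpn difference of -0.42 (adjusted p = 0.094), and its Gad1 call was lost without Gad1-positive replicate 1 (0.46, adjusted p = 0.088). Neurod1, an endocrine and neuronal factor, differed by -0.31 (adjusted p = 0.19) and 0.02 (adjusted p = 0.94).

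Other genes changed in 1 sort and had a called difference of differences, which was so for 2327 of the 3256 genes called with Gad1 alone and 2248 of the 3077 called with Pdpn alone. Cornified keratinocyte genes, which build the outer layer of skin, rose with Gad1 in 22 of 25 members, with medians of 2.31 with Gad1 and -0.37 with Pdpn. Of its members 9 rose with Gad1 and fell with Pdpn, 1 did the reverse and 12 were called with Gad1 alone. Those classes held 10.1%, 6.91% and 19.6% of all genes. Krt10, a keratin of the upper epidermis, measured 9.95, 9.97 and 10.09 on the Gad1-negative arrays and 13.34, 13.22 and 13.37 on the Gad1-positive arrays. In the Pdpn sort it measured 12.00, 12.23 and 12.24 on the Pdpn-negative arrays and 12.18, 11.44 and 11.64 on the Pdpn-positive arrays, where the groups overlapped. Its rise with Gad1 was 3.30 and its Pdpn difference -0.41 (adjusted p = 0.028), a call lost without 4 of the 6 Pdpn arrays in turn (-0.37 to -0.25, adjusted p = 0.091 to 0.24). Krtdap, a keratinocyte differentiation protein, gave 3.22 and -0.26 (adjusted p = 0.12), and Calm4, a calmodulin-like skin protein, 3.49 and -0.77. Tgm1, the transglutaminase that crosslinks the envelope, rose in both (0.90 and 1.53), though without Gad1-negative replicate 3 its Gad1 difference was 0.66 (adjusted p = 0.051).

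Basal and Ccl21-type mTEC genes changed mainly with Pdpn, with 11 of 13 members higher with Pdpn (20.1% of all genes) and 4 with Gad1 (21.1%). Of the 13, 7 were called with Pdpn alone (18.5% of all genes), 3 rose in both (2.98%) and 1 was opposite (6.91%). The medians were -0.06 with Gad1 and 1.66 with Pdpn. Pdpn itself, whose protein the cells were sorted by, is counted among the 11 and in the medians. With median scaling the Gad1 side turned, with 1 member higher and 4 lower (median -0.31). Then 4 were opposite and 1 rose in both. With the 12 arrays fitted alone, 2 were lower with Gad1 and 2 opposite, where the main fit had 1 and 1. Krt5, a basal keratin, measured 9.37, 9.55 and 9.75 on the Gad1-negative arrays and 9.36, 9.45 and 9.15 on the Gad1-positive arrays. With Pdpn the values were 8.72, 9.30 and 9.08 on the Pdpn-negative arrays and 11.65, 11.80 and 11.86 on the Pdpn-positive arrays. The Gad1 groups were close and the Pdpn groups far apart, with differences of -0.24 (adjusted p = 0.43) and 2.73. Ccl21a, a chemokine that draws T cells into the medulla, and Lamb3, a laminin chain of the basement membrane, rose with Pdpn by 2.02 and 2.66, with Gad1 differences of -0.43 and -0.46 (adjusted p = 0.095 and 0.079). Itgb4, an integrin of hemidesmosomes, was opposite (-1.14 and 1.56). Krt15, a keratin of basal stem cells, was among the 3 that rose in both (1.45 and 1.96).

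Of 13 mTEC maturation genes 8 were called with Pdpn alone, against 18.5% of all genes, and 6 of these fell. Aire measured 12.73, 12.82 and 12.65 on the Gad1-negative arrays and 12.52, 12.62 and 12.73 on the Gad1-positive arrays. On the Pdpn side it measured 12.82, 12.80 and 12.91 on the Pdpn-negative arrays and 11.92, 11.53 and 11.13 on the Pdpn-positive arrays. The Gad1 groups overlapped and the Pdpn groups did not. Its differences were -0.10 (limma, adjusted p = 0.61) and -1.32, and the difference of differences was 1.21 (SE 0.21, limma, adjusted p = 1.1e-05). Fezf2 (0.17 and -0.90), the costimulatory ligand Cd80 (0.10 and -1.45) and Hdc, which makes histamine (0.03 and -1.49), were likewise lower with Pdpn, each with a called difference of differences and a Gad1 difference that did not pass (adjusted p = 0.25, 0.68 and 0.87). The other 2 rose with Pdpn: Ccl17, a chemokine of mature mTECs and dendritic cells, by 2.15, and Tnfrsf11a, the receptor RANK, by 0.31. The call of Tnfrsf11a was lost with median scaling (0.33, adjusted p = 0.22) and without 4 of the 6 Pdpn arrays in turn (0.22 to 0.33, adjusted p = 0.062 to 0.22). The MHC class II list had 3 opposite members of 11, all higher with Gad1, against 10.1% of all genes, and with median scaling it had 1. H2-Ob, a chain of the peptide-loading modulator H2-O, differed by 0.78 and -1.96, whereas Ciita, the master activator of the class II genes, fell with Gad1 (-0.90) and had a Pdpn difference of -0.19 (adjusted p = 0.10). Immediate early and heat shock genes, which are known to respond to stimulation within a short time, had 12 of 18 members called with Pdpn alone, against 18.5% of all genes, and 13 higher with Pdpn (medians 0.03 and 0.78, with median scaling -0.23 and 0.79). Jun, a subunit of the AP-1 factor, gave -0.11 (adjusted p = 0.60) and 1.42. Cortical epithelium genes, which serve positive selection, had 7 of 11 called with Pdpn alone, against the same 18.5%, in both directions: Prss16, the thymus-specific protease, rose by 1.49 and Ccl25, a chemokine for thymocyte precursors, fell by 0.93. Serine synthesis and one-carbon genes split, with 2 of 11 in each opposite class, against 10.1% and 6.91% of all genes. Psat1, a transaminase of serine synthesis, gave -1.34 and 1.58, and Trib3, a stress pseudokinase, 0.60 and -1.49, while Phgdh, the first enzyme of that path, fell in both (-1.06 and -2.06). Microfold cell genes had none of 11 in the opposite classes, which hold 17.1% of all genes. In this list 2 rose in both (2.98% of all genes), Gp2 and Tnfaip2, and 1 fell in both (2.71%), Spib. With median scaling 1 member was opposite and 1 rose in both. The Gad1 call of Tnfaip2 (0.37) was lost with median scaling (0.27, adjusted p = 0.24) and without 4 of the 6 Gad1 arrays in turn (0.30 to 0.36, adjusted p = 0.063 to 0.11).

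**Figure D4:**
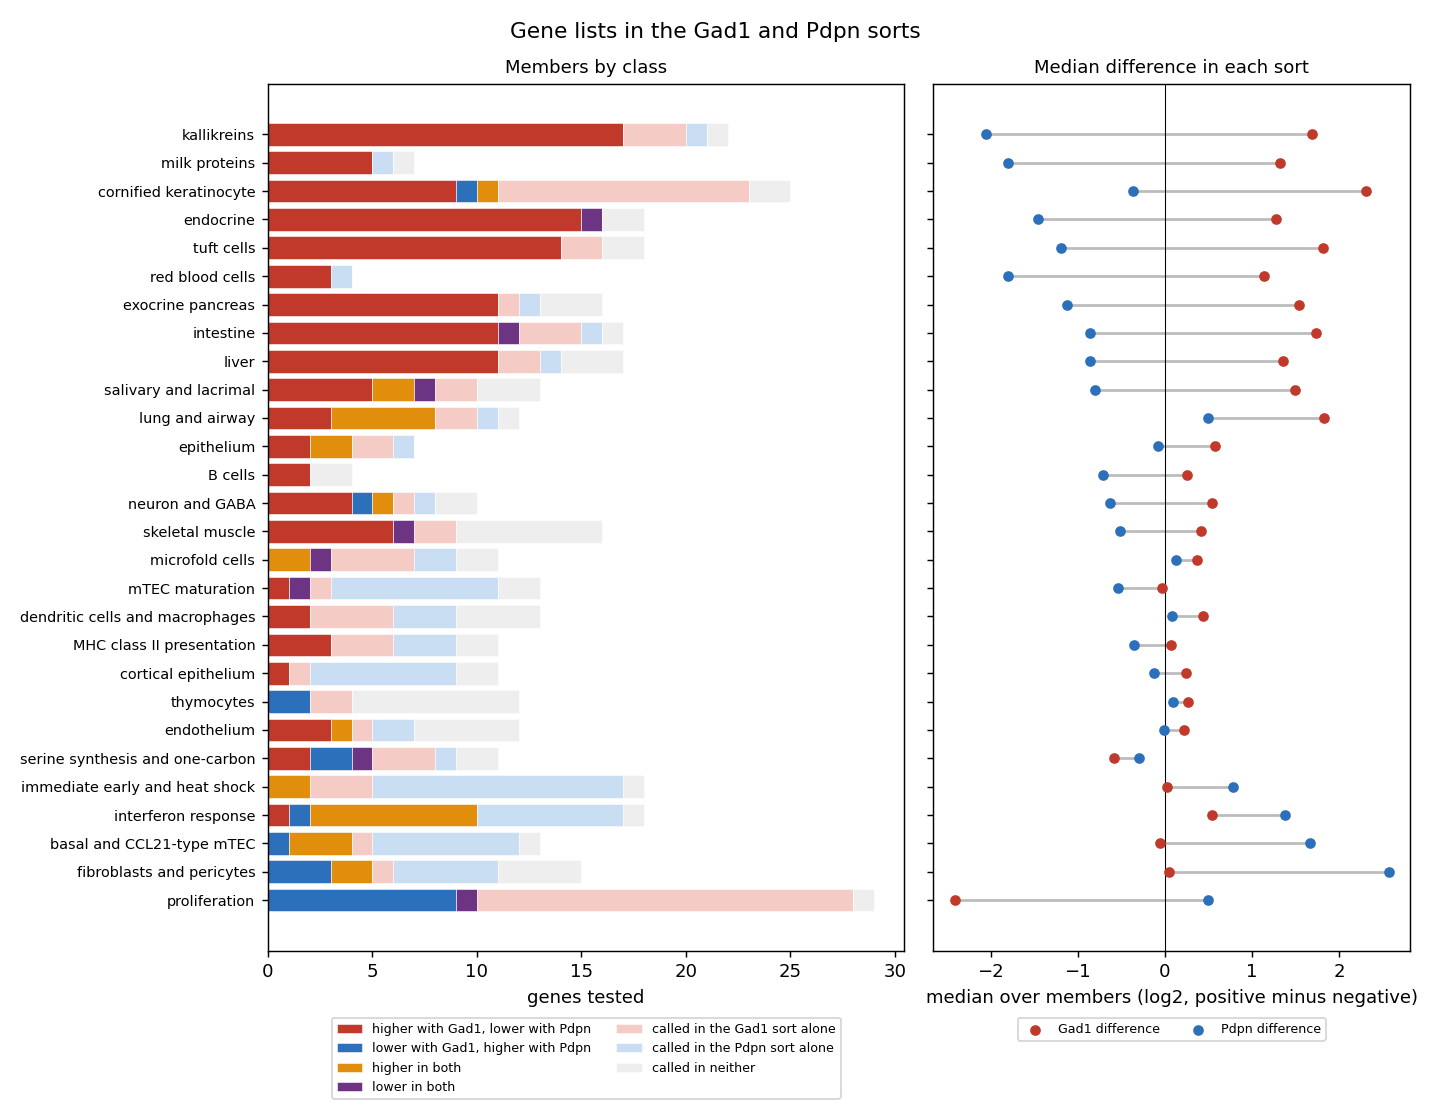
Members of the gene lists by class (left, number of genes tested) and median log2 difference in each sort (right, positive minus negative), ordered by the median difference of differences, with red points for Gad1 and blue points for Pdpn. Kallikreins, milk proteins, endocrine and tuft genes have medians on opposite sides of 0, with Gad1 at the right, proliferation genes have Gad1 at the left, and the medians of interferon response genes are both above 0.

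Endothelial and thymocyte markers changed less evenly. Of 12 endothelial markers tested, 3 were opposite, against 17.1% of all genes, and 1 rose in both, with summed signals of 1320 to 1412 and 1563 to 1661 in the Gad1 sort and 1504 to 1602 and 1385 to 1683 in the Pdpn sort (negative, then positive). Of 12 thymocyte markers 2 were opposite, against the same share, Cd8b1, a coreceptor chain (-0.48 and 0.57), and Bcl11b, a transcription factor of the T lineage (-1.36 and 1.18). On the mean of their probes neither was opposite: Bcl11b had a Pdpn difference of 0.49 (adjusted p = 0.078), and Cd8b1 differed by -0.33 (adjusted p = 0.46) and 0.12 (adjusted p = 0.82). Summed signals of thymocyte markers were 1495 to 1939 and 1312 to 1550 with Gad1, and 1613 to 2322 and 2002 to 2475 with Pdpn. The part of these cells in the results was not tested.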

How the data were processed

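Total RNA of sorted mTECs was amplified to biotin-labelled cRNA and read on Illumina bead arrays, per the labels' protocols. The authors deposited a table of unnormalized mean bead intensity with a detection p-value per probe and array, per the file headers, and a series table of normalized intensity whose normalization is not given in the sources used here. The first names probes by bead number and the second by platform probe. All 46089 probes were therefore linked by the ranks of their values over 34 arrays, as mutual nearest neighbours, with a median distance ratio of 0.0377 between the nearest and the second candidate. An array kept out of the link then correlated at 0.989 (Spearman), against 0.00159 with shuffled links. Gene names came from the platform annotation, updated for 28519 probes by gene identifier and 2634 by accession, with 4514 symbols kept as given and 10422 probes unnamed. The signal column of Ins2-negative replicate 2 was identical to the detection p-value of Ins2-positive replicate 1 at all 46089 probes and was left out.

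Signals were background-corrected and quantile-normalized by neqc (limma 3.58.1, R 4.3.3) with an offset of 16 and the negative control spots modelled from detection p-values, which gave the log2 values computed here from the deposited intensity. Each gene was read from its kept probe of highest mean over the 12 arrays. One linear model with a mean per group over 34 arrays and an intensity trend in eBayes gave 22 residual degrees of freedom. Adjusted p-values are Benjamini-Hochberg values over 16650 genes, with 0.05 as threshold, and limma is the source of every adjusted p. The model was tested on simulated data. Bounds, written as at least a given fold, compare the bright group's mean with the higher of the lowest detected signal and the probe's own value on each array of the dim group. Gene lists are described by counts and medians with no test. Motifs were searched in RefSeq promoter windows, which could be matched for 13 of 18 tested interferon genes and 23 of 29 proliferation genes.

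Genes called in both sorts were named by the smaller of their absolute differences, from those without overlap between arrays of either sort, with 12 or 8 per class where detected in all 4 groups and 3 per class where not. The extremes of the difference of differences, the antigen genes, from each list up to 4 members (those lowest in adjusted p) and members that moved alike were added. Of the 198 genes this rule names, some are left out for length. Cdx2, Gfi1b, Pou2f3, Neurod1, Ccl17, Tnfrsf11a and Csf1r were added after their values were seen. The members and lists were chosen with earlier results of these data known. Same-numbered positive and negative arrays deviated together in the Pdpn sort (correlations of 0.201, 0.159 and 0.207) but not in the Gad1 sort (-0.00461, 0.0731 and 0.0314). The replicate number as a block changed the call of the difference of differences for Ltf, Bpifa1 and Ccl17 alone among the genes named.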

Additional observations from a re-analysis of the deposited data

Results flagged for a closer look

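For 3991 genes the Gad1 difference exceeded the Pdpn difference and for 4182 genes it lay below it, by limma's test of the difference of differences at an adjusted p under 0.05. The values of the genes named in the results that passed this test follow, in log2 units, and each says that the gene responded unlike in the 2 sorts. They repeat the test given there.

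Among genes that rose with Gad1 and fell with Pdpn, the highest values were Pth at 6.16, Gnat3 at 5.46, Ttr at 5.42, Sh2d6 at 5.24, Prl2c3 at 5.19, Klk1b27 at 5.13, Akr1c12 at 5.00, Spink4 at 4.87 and Fabp9 at 4.81. After these came Apoc3 at 4.75, Ins2 at 4.61, Dppa3 at 4.61, Saa3 at 4.54, Anxa10 at 4.39, Calm4 at 4.26, Klk1b8 at 4.22, Resp18 at 4.18 and Klk5 at 4.14. Lower values belonged to Sncg at 4.11, Vil1 at 4.08, Avil at 4.06, Dcpp1 at 3.98, Sis at 3.95, Clps at 3.91, Ambp at 3.85, Krt10 at 3.71 and Bpifa2 at 3.69. Further down stood Sval2 at 3.64, Ctrb1 at 3.54, Gng13 at 3.38, Ppy at 3.33, Scgb1a1 at 3.26, Csn2 at 3.24, Myh8 at 3.16, Pyy at 2.93 and Ms4a3 at 2.91. Below these lay H2-Ob at 2.73, Chrna1 at 2.58, Oasl1 at 2.31, Gad1 at 2.28, Gfi1b at 2.18, Trib3 at 2.10, Cldn7 at 2.09, Syp at 2.02 and Cldn3 at 1.76. At the lower end were Cdx2 at 1.70 and Sftpb at 1.63. The Gad1 difference of Cldn7 was 0.58 (limma, adjusted p = 0.034). Its call was lost without Gad1-negative replicate 2 (0.56, adjusted p = 0.08) or 3 (0.48, adjusted p = 0.13). The same held without Gad1-positive replicate 1 (0.61, adjusted p = 0.057) or 3 (0.44, adjusted p = 0.16).

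Among genes that fell with Gad1 and rose with Pdpn, the lowest values were Rbms3 at -5.84, Ltbp4 at -5.45, Lmnb1 at -5.44, Nfib at -5.11, Flna at -4.82, Col6a2 at -4.79, Tk1 at -4.66, Snai2 at -4.64 and Fstl1 at -4.48. Closer to 0 were Gli3 at -4.44, Col6a1 at -4.43, Mki67 at -4.15, Plk1 at -4.05, Smo at -3.84, Fbln1 at -3.75, Mcm5 at -3.68, Cdc20 at -3.41 and Psat1 at -2.91. The remaining values were Gbp3 at -2.74, Itgb4 at -2.70, Bcl11b at -2.54, Erf at -2.00 and Cd8b1 at -1.05.

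Genes that moved alike also differed in size. Of those higher in both sorts, Gp2 at 1.82, Krt19 at 1.41, Bpifb1 at 1.27, Rsad2 at 1.22, Sftpd at 1.15 and Isg15 at 1.00 rose more with Gad1, and Aqp5 at -3.32, Ifit3 at -1.52, Pcolce at -1.42, Gsto1 at -1.07 and Cyp2f2 at -1.06 rose more with Pdpn. Of those lower in both, Cdx1 at 1.30, Phgdh at 1.00 and Insm1 at 0.86 fell more with Pdpn, and Lmo3 at -1.31 fell more with Gad1.

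Genes called with Gad1 alone that passed the test were Krtdap at 3.48, Ceacam1 at 2.42, Tspan8 at 1.71, Stmn2 at -1.51, Pou2f3 at 1.12, Ciita at -0.71 and Krt8 at 0.67. With Pdpn alone they were Pdpn at -4.82, Lamb3 at -3.11, Krt5 at -2.97, Col3a1 at -2.52, Ccl21a at -2.45, Mx2 at -2.30, Prss16 at -2.05, Cd80 at 1.55 and Jun at -1.53. The rest were Hdc at 1.52, Siglech at -1.50, Ccl25 at 1.38, Aire at 1.21, Fezf2 at 1.08, Csf1r at -0.87 and Tnfrsf11a at -0.50.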

How the results depend on the processing

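Each count was recomputed with other background correction, scaling, detection filters, probe choices, array weights, array sets and the authors' normalized values, and the cause of a change was not tested. With median scaling, the genes that fell with Gad1 and rose with Pdpn numbered 609, of which 591 were among the 1151, and those lower in both 192, of which 173 were among the 452. Requiring a 2-fold change as well left 2349 genes with a difference of differences below 0, 579 that rose with Gad1 and fell with Pdpn, 141 of the reverse, 80 higher in both and 28 lower in both, as a stricter threshold must. All other settings kept each count within 1.5 times. Without 1 array in turn, the genes with a difference of differences above 0 were 3748 to 3914 and those below 0 were 3826 to 4105, the opposite classes held 1502 to 1672 and 966 to 1107, and the alike classes 427 to 502 and 371 to 446.

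With the replicate block, which left 10 residual degrees of freedom, the pairing gave 4143 genes above and 4398 below 0, opposite classes of 1833 and 1304 and alike classes of 605 and 546. Of the genes named, Ltf and Bpifa1 (both -0.48, adjusted p = 0.028 and 0.043 in limma) and Ccl17 (-1.44, adjusted p = 0.0047) gained a call of the difference of differences. The block changed no other such call among the genes checked.

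No named gene's called difference of differences changed sign. Calls were lost for Insm1 (0.57, adjusted p = 0.14), Phgdh (0.74, adjusted p = 0.12) and Krt8 (0.23, adjusted p = 0.39) with median scaling and for Cd8b1 (-0.44, adjusted p = 0.46) and Siglech (-0.57, adjusted p = 0.25) on the mean of their probes, all in limma. Tnfrsf11a lost its call with median scaling too (-0.60, adjusted p = 0.087), and Csf1r under 6 settings besides leaving out arrays, as low as -0.12 (adjusted p = 0.78) on the mean of its probes. Without background correction, Krt6b (-1.10), Ltf (-0.70), Bpifa1 (-0.75), Cxcl17 (-0.64), Krt15 (-0.53) and Irf7 (-0.57) gained one, so those genes still rose in both sorts but by more with Pdpn. Many list medians were smaller without background correction and in the authors' normalized values. For the difference of differences, exocrine pancreas had 1.10 and 1.26 and proliferation -1.82 and -1.89 under these 2 settings, and fibroblasts -0.89 and -1.08. List medians of the difference of differences turned sign on the mean of a gene's probes for serine synthesis (0.40) and endothelium (-0.08). Low signal limits what these arrays show: for genes below background in a group only a bound is given, and the number of arrays, 3 per group, limits the precision.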
